A study of Macaca fascicularis with 4 samples.

Results

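Wnt signalling is controlled outside the cell by secreted proteins that either capture the Wnt ligand or act on its receptors. R-spondins (RSPO1, RSPO3) are agonists: they bind LGR receptors and keep Frizzled receptors on the cell surface by blocking the ubiquitin ligases RNF43 and ZNRF3. WIF1 and the secreted Frizzled-related proteins (SFRP1, SFRP2, SFRP4 and FRZB, also known as SFRP3) bind Wnt ligands and mostly act as inhibitors, and DKK3 is a divergent member of the Dickkopf family whose role in Wnt signalling differs between contexts. In adipose tissue, Wnt signalling through beta-catenin is known for holding back the formation of adipocytes. These 8 genes were taken by name from gene counts of the cynomolgus monkey (Macaca fascicularis), out of 13982 genes with a count, and all 8 were found.

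The counts come from full-length sequencing of cDNA molecules (PacBio Sequel II). Each of the 4 libraries was made from RNA pooled from 5 monkeys, and the tissues are liver, muscle, oWAT and sWAT. WAT commonly stands for white adipose tissue, but the labels leave both abbreviations unexplained and name no treatment, age or strain. With 1 library per tissue there is no measure of the spread between animals, and every interval below covers counting error alone.

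Library totals ran from 383896 counts in sWAT to 439872 in muscle, and levels are given as CPM, counts scaled to a total of 1000000. All 10 hepatocyte markers reached 10 counts in the liver library, all 10 myofibre markers did so in the muscle library, and all 10 adipocyte markers in both adipose libraries. Of the adipocyte markers, 8 also reached 10 counts in muscle and 3 in liver. Their summed level was 2819 CPM in muscle and 891 CPM in liver, against 18702 CPM in oWAT and 20675 CPM in sWAT. A gene was called higher in a library where it had at least 10 counts there and its ratio to the other library had an exact 95% interval that lay wholly above 2. Where a library had 0 counts of a gene, a floor of 3 counts stood in for the 0, equal to between 6.82 CPM (muscle) and 7.82 CPM (sWAT), and such a fold is given as "at least". The lower bound of the exact interval, which is two-sided, is smaller and is given beside it.

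The modulators differed between the adipose libraries in both directions. RSPO1, WIF1 and DKK3 were higher in oWAT than in sWAT, SFRP4 was higher in sWAT, and SFRP2 and FRZB were not called in either direction. RSPO3 and SFRP1 had too few counts in these libraries to be called. Thus 3 of the 6 modulators with at least 10 oWAT counts were higher there, where 1.43% of all genes with 10 oWAT counts were called. In the other direction 1 of 4 was higher in sWAT, against 0.767% of all genes. The modulators were proposed in this pair of libraries with earlier results known, so these shares are no test of enrichment.

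**Figure D1:**
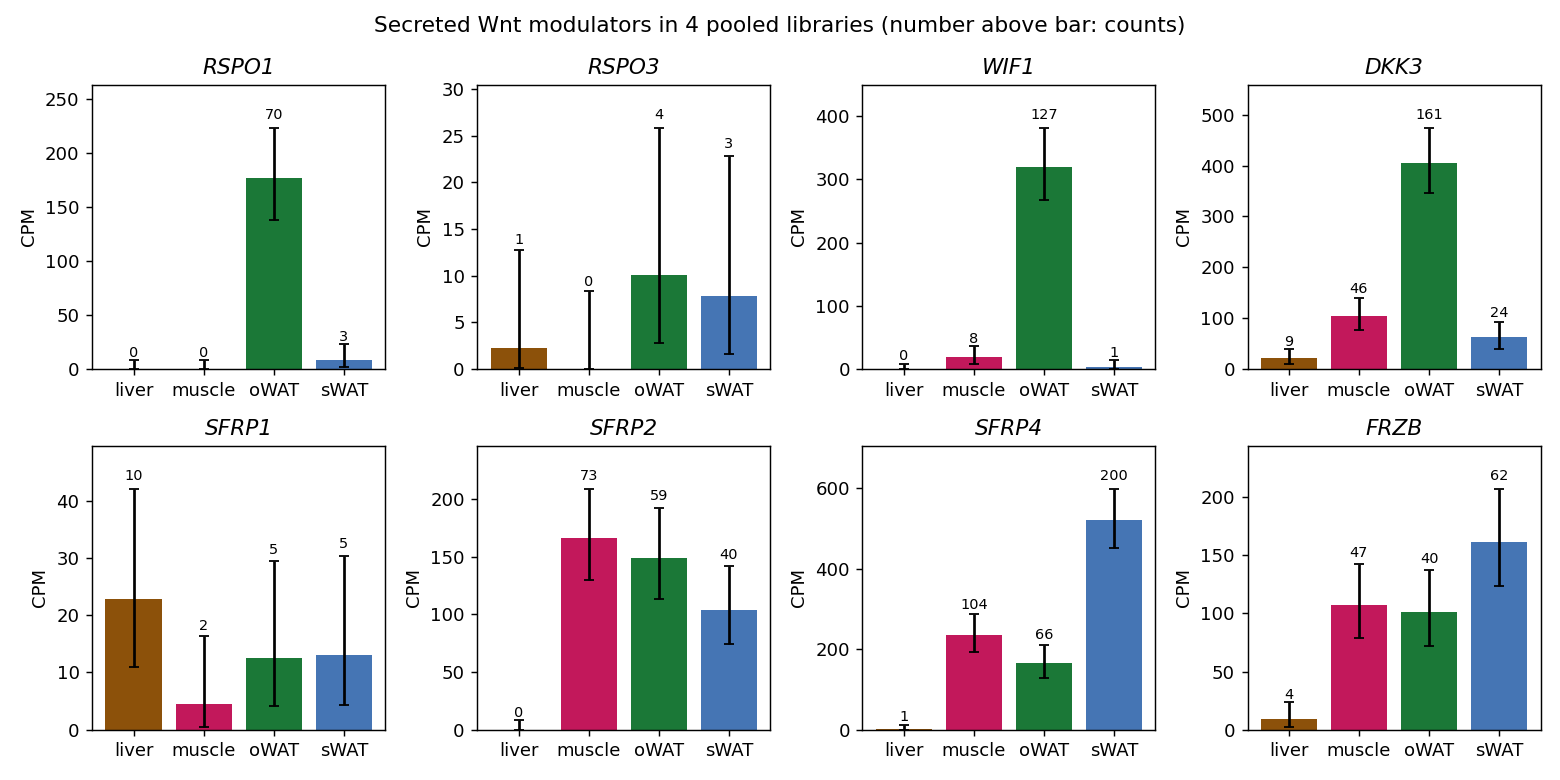
Level of each modulator in the 4 libraries. The vertical axis is CPM on a scale of its own for each gene, bars are the single pooled library of a tissue, error bars are exact 95% Poisson intervals of the count, and the number above each bar is the count. RSPO1, WIF1 and DKK3 peak in oWAT (70, 127 and 161 counts), SFRP4 in sWAT (200 counts), and SFRP2 is spread over the 3 libraries other than liver.

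Among the R-spondins, RSPO1 had 70 counts in oWAT (176 CPM, 95% Poisson interval 138 to 223), 3 in sWAT (7.82 CPM) and 0 in liver and in muscle. The oWAT library thus stood alone at the top. Its level was 22.6-fold that of sWAT (95% interval 7.41 to 112), at least 25.7-fold that of liver (exact lower bound 20.4) and at least 25.9-fold that of muscle (20.5). RSPO3 had 4 counts in oWAT, 3 in sWAT, 1 in liver and 0 in muscle. No neighbouring pair in that order differed beyond counting error: the ratio of oWAT to sWAT was 1.29 (0.218 to 8.81), so a difference of several fold in either direction was not detectable at this depth.

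WIF1 (Wnt inhibitory factor) had 127 counts in oWAT (320 CPM, 267 to 381), 8 in muscle (18.2 CPM, 7.85 to 35.8), 1 in sWAT (2.61 CPM) and 0 in liver. The oWAT library held 93.9% of the CPM of this gene summed over the 4 libraries, and 95.8% of that of RSPO1. WIF1 in oWAT was 17.6-fold its muscle level (8.67 to 41.7) and at least 46.7-fold its liver level (exact lower bound 37.4). Its ratio to sWAT was 123, with a wide interval (21.7 to 4891) because sWAT had a single count. Muscle and sWAT, next to each other in the order, did not differ beyond counting error (6.98-fold, 0.936 to 310), nor did sWAT and liver. This depended on the scaling. TMM factors (trimmed mean of M-values) raised log2 ratios of muscle to sWAT by 0.41 and DESeq2 size factors by 0.36. With either, the interval of muscle to sWAT lay above 1. Muscle also exceeded liver beyond counting error (at least 2.65-fold, exact lower bound 1.70). With 8 muscle counts neither could be called.

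DKK3 was counted in every library. It had 161 counts in oWAT (406 CPM, 346 to 474), 46 in muscle (105 CPM, 76.6 to 140), 24 in sWAT (62.5 CPM, 40.1 to 93.0) and 9 in liver (20.6 CPM, 9.41 to 39.0). The interval of oWAT lay above those of the other 3 libraries. DKK3 in oWAT was 6.49-fold its sWAT level (4.21 to 10.4), 3.88-fold its muscle level (2.78 to 5.51) and 19.7-fold its liver level (10.1 to 43.9). The call over muscle was lost when libraries were scaled with TMM factors (2.63-fold, 1.88 to 3.73) or by DESeq2 size factors (2.65-fold, 1.90 to 3.77). Muscle was 1.67 times sWAT and sWAT 3.04 times liver (1.36 to 7.43), neither of them called; with TMM scaling the second interval included 1 (1.68, 0.754 to 4.11).

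**Figure D2:**
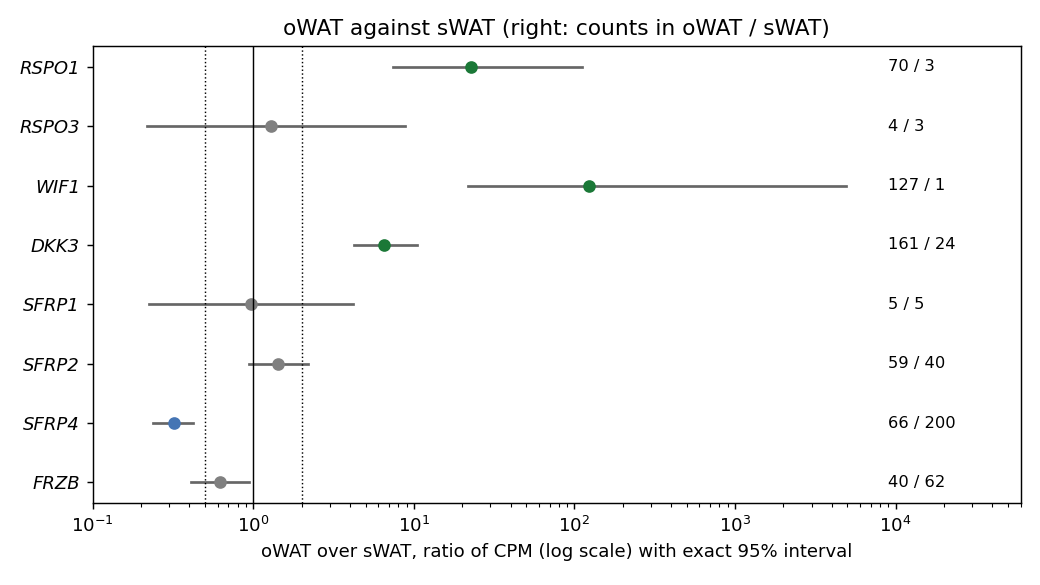
Ratio of CPM in oWAT to CPM in sWAT for each modulator, on a log scale, with exact 95% intervals of counting error. The solid line marks equal levels and the dotted lines a 2-fold difference; green points are called higher in oWAT, blue in sWAT, grey in neither, and the counts of both libraries stand at the right. WIF1, RSPO1 and DKK3 lie wholly to the right of the upper dotted line (ratios 123, 22.6 and 6.49) and SFRP4 to the left of the lower one (0.319).

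By the lower bound of their interval, WIF1 ranked 8 among the 94 genes called higher in oWAT than in sWAT, RSPO1 ranked 19 and DKK3 ranked 31. SFRP4 ranked 26 among the 46 genes called higher in sWAT. The members were proposed in this pair of libraries, so these ranks are not an independent result. The median gene was itself slightly on the oWAT side, with a log2 ratio of 0.18 over 7040 genes with 10 counts in either library. TMM scaling lowered log2 ratios of oWAT to sWAT by 0.15, and all 4 calls between these libraries held with it and with DESeq2 size factors.

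Mesothelial genes were also higher in oWAT. The mesothelium is the cell layer that covers the omentum and other visceral surfaces, and of 14 markers listed for it 12 had a count and 10 were higher in oWAT than in sWAT. KRT7 and CALB2 had under 10 counts in both. The summed level of the list was 4637 CPM in oWAT against 28.7 CPM in sWAT, 31.8 CPM in muscle and 43.4 CPM in liver. MSLN, WT1, UPK3B, UPK1B, LRRN4, ITLN1 and KRT19 had 0 counts in sWAT and in muscle. CALB2 had 0 counts in oWAT, and KRT8 and KRT18 were not among the names analysed here. The part of these cells in the levels of RSPO1, WIF1 and DKK3 was not tested, and in bulk RNA a larger number of cells of a type and more RNA per cell cannot be told apart.

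**Figure D3:**
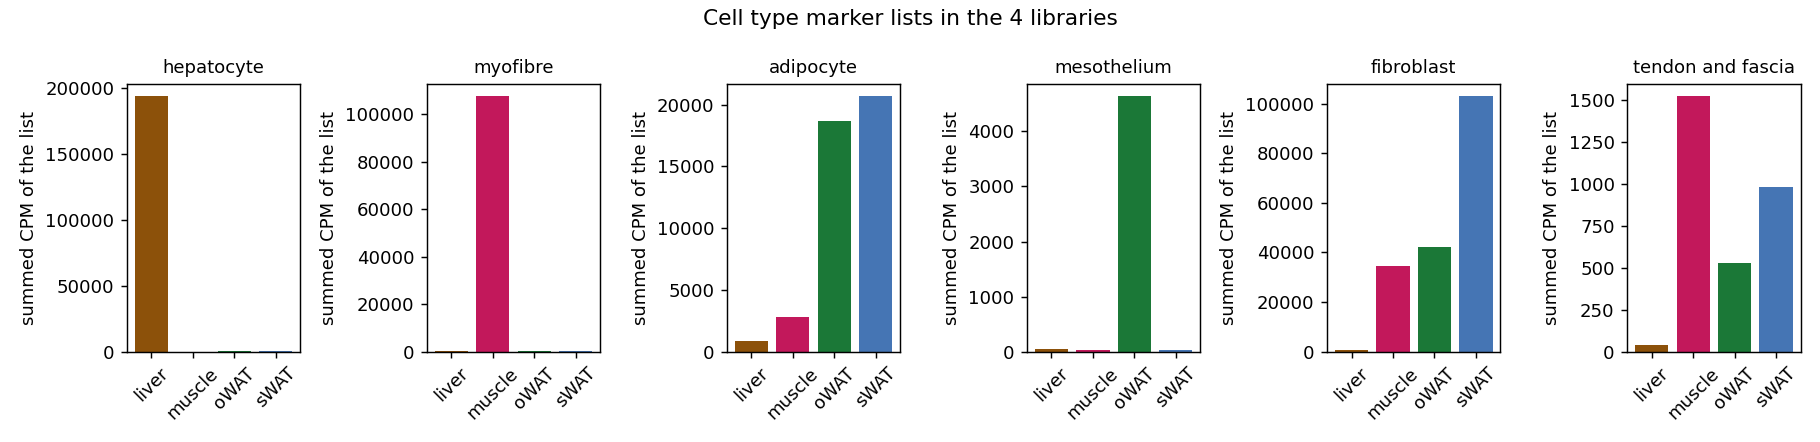
Summed CPM of 6 cell type marker lists in the 4 libraries, with a scale of its own for each list and 1 pooled library per bar. The mesothelium list stands at 4637 CPM in oWAT and at 43.4 CPM or less elsewhere, and the fibroblast list is at its highest in sWAT.

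Among the secreted Frizzled-related proteins, SFRP4 had 200 counts in sWAT (521 CPM, 451 to 598), 104 in muscle (236 CPM, 193 to 287), 66 in oWAT (166 CPM, 129 to 212) and 1 in liver (2.29 CPM). Each step of that order exceeded counting error. The sWAT level was 3.13-fold that of oWAT (2.36 to 4.20) and 2.20 times that of muscle (1.73 to 2.82), of which the first alone was called. Muscle was 1.42 times oWAT (1.03 to 1.97), and oWAT was 72.8-fold liver (12.6 to 2918).

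FRZB had 62 counts in sWAT (162 CPM, 124 to 207), 47 in muscle (107 CPM, 78.5 to 142), 40 in oWAT (101 CPM, 72.0 to 137) and 4 in liver (9.14 CPM). The sWAT level was 1.51 times that of muscle (1.02 to 2.26) and 1.60 times that of oWAT (1.06 to 2.45), and neither was called. Muscle and oWAT did not differ beyond counting error (1.06, 0.680 to 1.66). With TMM scaling sWAT and muscle did not differ beyond it either (1.14, 0.764 to 1.70), while FRZB in muscle was 1.57 times its oWAT level (1.005 to 2.45).

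SFRP2 was placed otherwise, with 73 counts in muscle (166 CPM, 130 to 209), 59 in oWAT (149 CPM, 113 to 192), 40 in sWAT (104 CPM, 74.4 to 142) and 0 in liver. Neighbours among the first 3 did not differ beyond counting error, with a ratio of oWAT to sWAT of 1.43 (0.939 to 2.19). The ends of the order, muscle and sWAT, differed by 1.59 times (1.07 to 2.40) without a call. With TMM scaling muscle also exceeded oWAT beyond counting error (1.65 times, 1.15 to 2.37), again without a call. SFRP1 had 10 counts in liver (22.9 CPM, 11.0 to 42.0), 5 each in oWAT and sWAT and 2 in muscle, and no neighbours differed beyond counting error. The ends of the order, liver and muscle, differed by 5.03 times (1.07 to 47.2) without a call, and with TMM scaling liver also exceeded oWAT beyond counting error (3.64 times, 1.13 to 13.6). It is the only modulator of the 8 with its highest level in liver, and the interval of its ratio to sWAT (1.76, 0.546 to 6.54) includes 1.

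Fibroblast genes were uneven between the adipose libraries as well. Of 16 fibroblast markers tested, 6 were higher in sWAT (COL1A1, COL1A2, COL3A1, MFAP5, FAP and LOX), 1 was higher in oWAT (FBLN1) and 9 were not called. The median log2 ratio of oWAT to sWAT over the 16 was -0.88, against 0.18 over all genes tested. FAP (fibroblast activation protein) had 101 sWAT counts and 30 oWAT counts. The summed level of all 18 listed markers, each with a count in both libraries, was 2.45 times higher in sWAT, mostly through the collagens, while DCN (1.07 times in oWAT, 0.970 to 1.17) and GSN (0.988, 0.949 to 1.03) were near equal. Endothelial genes leaned the same way (median -0.60 over 9 tested, with VWF higher in sWAT). So did genes of smooth muscle and pericytes (-0.44 over 7, 0 called), though RGS5 lay on the oWAT side (1.335, 1.025 to 1.745). The medians of the adipocyte list (-0.27 over 10, 0 called) and the tendon and fascia list (-0.42 over 4, 0 called) were also below 0. Macrophage genes leaned to oWAT (0.68 over 8, 0 called), though CD163 lay on the sWAT side (0.515, 0.327 to 0.798). The part of any of these cells in the level of SFRP4 was not tested.

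Liver held few modulator counts. In comparison with liver, 4 modulators were higher in muscle (SFRP2, SFRP4, DKK3 and FRZB), 6 were higher in oWAT (WIF1, RSPO1, SFRP2, SFRP4, DKK3 and FRZB) and 3 in sWAT (SFRP2, SFRP4 and FRZB). Those with at least 10 counts in the higher library, the ones that could be called, numbered 4, 6 and 4. The background was high in these comparisons: 23.0%, 25.8% and 24.2% of all genes were called in the same order. The median log2 ratio of liver to oWAT over all genes was itself -1.002, to sWAT -0.80 and to muscle -0.56. TMM scaling raised the log2 ratios of liver to oWAT by 1.005, to sWAT by 0.86 and to muscle by 0.44, and every fold over liver given here is smaller by that much with it. Under it FRZB in oWAT lost its call over liver (5.49-fold, 1.99 to 21.1), as did DKK3 in muscle (3.74-fold, 1.81 to 8.70), the latter also with DESeq2 size factors (3.75-fold, 1.81 to 8.71). SFRP2, with 0 liver counts, was at least 24.2-fold higher in muscle, at least 21.7-fold higher in oWAT and at least 15.2-fold higher in sWAT (exact lower bounds 19.2, 17.1 and 11.8).

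FRZB was 17.7-fold its liver level in sWAT (6.56 to 66.9), 11.7-fold in muscle (4.27 to 44.7) and 11.0-fold in oWAT (3.99 to 42.4). SFRP4 was 228-fold in sWAT (40.5 to 9049) and 103-fold in muscle (18.2 to 4125), both resting on 1 liver count. In the reverse direction SFRP1 was the single modulator with 10 liver counts. It was not called over muscle, oWAT or sWAT, where 17.7%, 12.9% and 13.6% of all genes were.

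Between muscle and the adipose libraries, RSPO1, WIF1 and DKK3 were higher in oWAT, 3 of 6, with 11.4% of all genes called. None of the 4 modulators with 10 sWAT counts was called over muscle, where 11.2% of all genes were. None of the 4 with 10 muscle counts was called over oWAT or over sWAT, where 8.30% and 9.23% of genes were. The comparisons share libraries, so these counts are not independent of each other.

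The genes closest in pattern were found for the 6 modulators with at least 30 counts, by the summed absolute difference in the share of CPM that falls to each of the 4 libraries, among 6895 named genes. WIF1 was nearest to ALOX15, a lipoxygenase (6.76 percentage points), ALDH1A2, an enzyme of retinoic acid synthesis (7.15), and RSPO1 (10.7). RSPO1 was nearest to ALOX15 (6.57), followed by WT1, a transcription factor of the mesothelium (8.48), and CRB2 (8.48). The last distance was a tie that further genes without muscle or sWAT counts shared, among them LRRN4 (8.48). Naming WT1 and CRB2 thus rests on how ties were broken. Both modulators thus had a shared nearest gene, and each of the genes named here for them had 90.3% or more of its CPM in oWAT.

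DKK3 was nearest to SERPINB6 (7.62), AJUBA (12.1) and CRTAC1 (12.7). SFRP4 was nearest to NOVA1 (3.74), ZNF423 (4.06), a transcription factor known from preadipocytes, and FAP (5.67). FRZB was nearest to ITGA7, an integrin chain (2.71), FAM107A (4.10) and USP53 (4.33), and SFRP2 to TRIP10 (1.04), MYLIP (5.23) and CACNB3 (6.94). With 4 libraries such a likeness is a description of 4 values, and many genes at low counts can come close by counting error.

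Wnt ligands had few counts. Of 19 Wnt ligands 10 had a count, and 2 reached 10 counts in an adipose library. Ligands without a count in any library were not among the names analysed here, so their levels are unknown. WNT2 had 14 counts in sWAT (36.5 CPM), 3 in muscle and 1 each in oWAT and liver, and was higher in sWAT than in oWAT (14.5-fold, 2.20 to 612), a call that a 99% interval or a minimum of 20 counts ended. WNT2B had 32 counts in oWAT (80.7 CPM), 9 in sWAT, 1 in muscle and 0 in liver; its ratio of oWAT to sWAT, 3.44 (1.61 to 8.19), was not called. The higher count of each thus lay in a different adipose library. Of 9 genes of Wnt transport and secretion, 8 were tested and 0 called. TMED2 (1.54, 1.28 to 1.86), VPS26A (1.39, 1.10 to 1.77) and TMED10 (1.27, 1.07 to 1.51) lay on the oWAT side beyond counting error. TMED5 lay on the sWAT side (0.585, 0.345 to 0.974), and the interval of VPS35 included 1 (0.962, 0.771 to 1.20). WLS, the carrier that takes Wnt to the cell surface, had 80.7 CPM in oWAT and 57.3 CPM in sWAT. Its interval also included 1 (1.41, 0.793 to 2.54). The list median was 0.41 on the log2 scale, against 0.18 for all genes.

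Of 19 receptors and co-receptors 11 had a count. FZD1, FZD2, FZD5, FZD7, FZD8, FZD9, FZD10 and LRP5 were not among the names analysed here, so their levels are unknown. Of the 11, 8 were tested, 1 was higher in oWAT and 0 in sWAT. That 1 was PTK7, a pseudokinase co-receptor of planar polarity signalling, with 237 counts in oWAT, 35 in sWAT, 12 in muscle and 3 in liver. Its oWAT level was 6.55-fold that of sWAT (4.58 to 9.63), close in size to the 6.49-fold of DKK3. FZD4 had the most counts of the Frizzled receptors among the names analysed (FZD3, FZD4 and FZD6). It had 297 counts in sWAT (774 CPM), 185 in oWAT (466 CPM), 79 in muscle and 27 in liver. Its ratio of oWAT to sWAT, 0.603 (0.499 to 0.727), was not called. LRP6, the co-receptor of beta-catenin signalling, had 39 counts in sWAT and 25 in oWAT, and RECK, a cofactor for certain Wnt ligands, 49 and 28. The list median was -0.70 against 0.18 for all genes.

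Genes of the R-spondin receptors and their turnover had few counts, at most 12 in a library. LGR4 had 7 counts in sWAT, 4 in liver and 2 each in muscle and oWAT, and LGR5 had 12 in muscle, 4 in liver, 2 in sWAT and 0 in oWAT. LGR5 was called higher in muscle than in oWAT (at least 3.61-fold, exact lower bound 2.51). ZNRF3 had 3 in liver, 2 in oWAT and 0 in the others, and LGR6 and RNF43 were not among the names analysed here. LGR4, LGR5 and ZNRF3 did not reach 10 counts in either adipose library, so a difference between oWAT and sWAT in these 3 was not detectable at this depth.

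**Figure D4:**
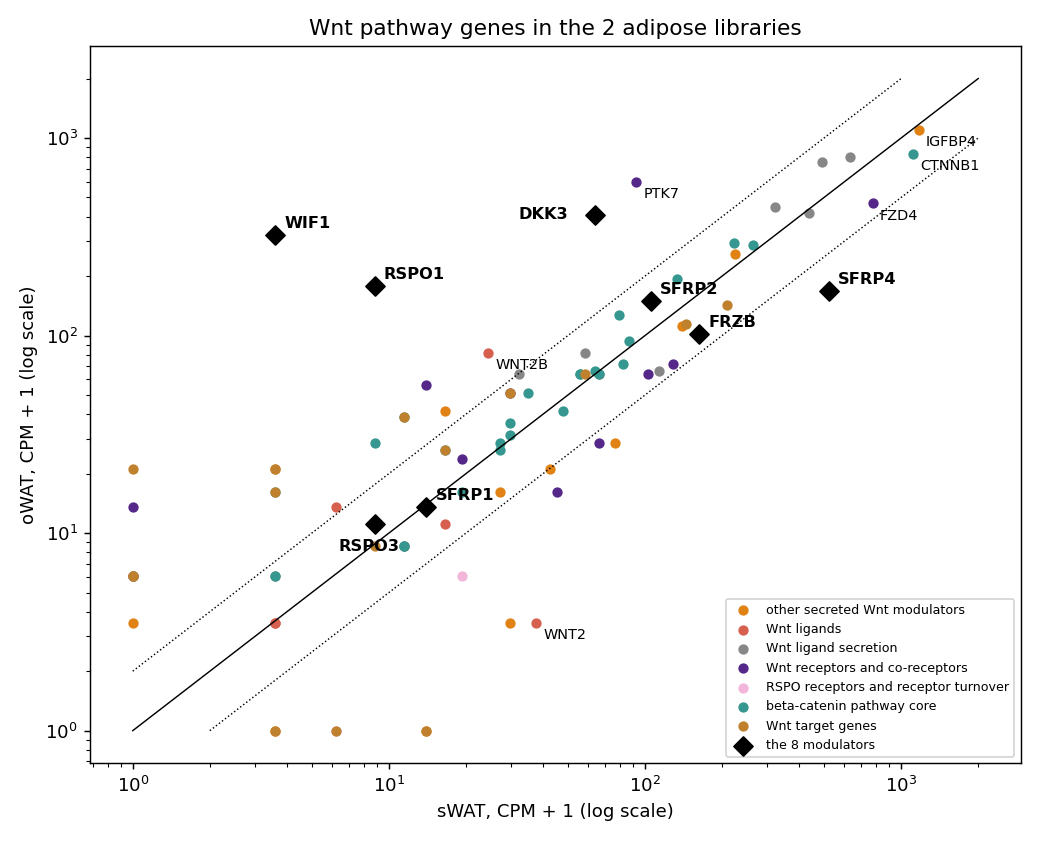
Wnt pathway genes in sWAT (horizontal axis) and oWAT (vertical axis), as CPM + 1 on log scales. Black diamonds are the 8 modulators, coloured points are other pathway genes by role, the solid line marks equal values and the dotted lines a 2-fold difference. WIF1, RSPO1 and DKK3 lie far above the upper dotted line with PTK7, SFRP4 lies below the lower one, and the abundant pathway genes IGFBP4 and CTNNB1 lie between the dotted lines (ratios 0.937 and 0.746).

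Few pathway genes would be called at the background share of 1.43% for oWAT over sWAT and 0.767% for the reverse. Counts of 0 in the short pathway lists above and below are thus no result about those lists. Of 30 core genes of the beta-catenin pathway 20 were tested and 0 called, with a median log2 ratio of 0.16, near the 0.18 of all genes. CTNNB1, which encodes beta-catenin, had 330 counts in oWAT and 428 in sWAT (0.746, 0.644 to 0.863), a difference beyond counting error but not called. For the kinase genes CSNK1D (1.32, 0.990 to 1.77) and CSNK1A1 (1.09, 0.828 to 1.44) the interval included 1. Of 24 genes known as Wnt targets 6 were tested and 0 called, with a median of 0.39. CCND1 (cyclin D1) had 56 counts in oWAT and 80 in sWAT (0.68, 0.47 to 0.96), beyond counting error on the sWAT side without a call. TBX3 had 45 and 55 (0.79, 0.52 to 1.20). AXIN2, a feedback target that is also counted in the core list, had 15 counts in oWAT and 4 in sWAT (3.63, 1.16 to 15.0). That was beyond counting error on the oWAT side, again without a call.

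Other secreted or surface modulators gave 0 calls in 8 tested, of 27 listed and 16 with a count, with a median log2 ratio of -0.53. IGFBP4, a growth factor binding protein that also restrains Wnt signalling, had 435 counts in oWAT and 449 in sWAT (0.937, 0.820 to 1.07). The glypicans GPC4 (1.15, 0.853 to 1.55) and GPC3 (0.803, 0.526 to 1.22) were also not called, and CCN5, a matricellular protein, had 29 sWAT counts and 11 oWAT counts (0.367, 0.165 to 0.757). Of the other Dickkopf and R-spondin genes, DKK2 had 20 counts in liver, 5 in sWAT, 3 in muscle and 0 in oWAT, and was called higher in liver than in oWAT (at least 6.05-fold, exact lower bound 4.48). In the same comparison 12.9% of all genes with 10 liver counts were called. DKK1 had 1 count in sWAT and RSPO2 had 1 in liver.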

How the data were processed

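The authors deposited whole-number gene counts, not normalized, with 1 file per tissue; each file lists genes with at least 1 count, and a gene not listed was taken as 0. Per the labels' protocols, RNA of 5 monkeys was pooled per library and sequenced on the PacBio Sequel II platform. Reads were aligned with minimap2 2.24, according to the tools named per the submitters' processing notes. Counting, strand use, genome build and annotation remain not given in the sources used here, so no coordinates are printed. The file named eWAT belongs to the sample labelled oWAT and the file named iWAT to the sample labelled sWAT; the labels were followed, and each oWAT or sWAT result rests on that assignment. Counts that name no gene (14.3% to 19.5% of a file) were left out of the totals.

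Ratios of scaled counts carry exact Clopper-Pearson intervals and levels exact Poisson intervals (Python 3.11.15, SciPy 1.17.1). Both cover counting error only and treat reads as independent. Reads carry no molecular identifiers here, so copies of the same molecule would count separately and the intervals may be too narrow. No p-values were computed. Log2 ratios used a pseudocount of 0.5 counts. Members, gene lists and the calling rule were chosen with earlier results of these data known. The members were proposed in the comparison of oWAT with sWAT. Genes named beyond the members were, for each pathway list, those called between oWAT and sWAT and up to 4 with the most counts, and for likeness the 3 nearest genes. WLS, TMED5, AXIN2, DKK1, DKK2 and RSPO2, and the markers singled out, were named after their values were seen. Older symbols of listed genes were counted once. Listed genes without a count in any library were not among the names analysed, so a low level and a missing annotation cannot be told apart. All 8 members matched a RefSeq symbol (T2T-MFA8v1.1). Protein and promoter sequences were not used here. Alternatives were TMM factors (edgeR 4.0.16) and DESeq2 1.42.0 size factors, used for scaling alone, other totals, minimum counts, intervals and bounds, and thinning. The rule was also run on simulated data with independent Poisson counts. Such data cannot show the effect of copied molecules or of spread between animals.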

Additional observations from a re-analysis of the deposited data

How the results depend on the processing

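Of 42 ratios of a modulator between a pair of libraries (pairs at or under the floor give none), 20 were called, and no called ratio changed direction under any alternative run. Calls were lost with TMM scaling (3 ratios) and DESeq2 size factors (2 of these), as given above for DKK3 and FRZB. None was lost with totals that left out the 10 most abundant genes or that kept the counts naming no gene. A 99% interval and thinning to the smallest library also lost none. The other minimum counts could not lose a call. Dropping the minimum only adds calls, and every called modulator had at least 40 counts in its higher library, above the minimum of 20. With a lower bound above 1 in place of 2, 8 ratios gained a call. The modulators called then numbered 1 for liver over muscle, 1 for muscle over oWAT, 2 for muscle over sWAT, 2 for sWAT over muscle, 2 for sWAT over oWAT and 4 for sWAT over liver, beside 29.0%, 17.6%, 21.2%, 37.8%, 8.99% and 52.6% of all genes.

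Counts of genes called over the whole table also moved. With TMM the genes called were 1015 for liver over oWAT, 1018 for liver over sWAT, 653 for oWAT over liver, 331 for oWAT over muscle, 710 for sWAT over liver, 352 for sWAT over muscle and 70 for sWAT over oWAT. With DESeq2 size factors they were 1007 for liver over oWAT, 660 and 344 for oWAT over liver and over muscle, and 726, 387 and 82 for sWAT over liver, muscle and oWAT. A 99% interval gave 499 for oWAT over muscle and 28 for sWAT over oWAT. WNT2, the pathway gene called in sWAT over oWAT, was lost (0 called) with a minimum of 20 counts and with the 99% interval. Depth limits RSPO3 and SFRP1 most. With a minimum of 60 counts the 3 nearest genes were kept for WIF1 and FRZB. RSPO1 and SFRP4 kept 2 (CRB2 and NOVA1 fell out), and SFRP2 and DKK3 kept 1, TRIP10 and AJUBA. No paired analysis was possible because each tissue has 1 library.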
